A study of Mus musculus with 24 samples.

Results

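The microRNAs of the Dlk1-Dio3 domain, an imprinted region of mouse chromosome 12, were measured by 48 of the 584 microRNA assays of a real-time PCR survey of the mouse soleus. Members were chosen by name: every mouse assay without an asterisk whose microRNA number is one of 43 that belong to the domain, of which 39 had such an assay. An asterisk in an assay name marks the strand of a hairpin once held to be the minor product. The 16 asterisk assays and 6 rat assays of the same numbers were not members. The muscle came from 12 male mice, each aged 12 weeks, in 4 groups of 3. MCK-PPARa mice overexpress the nuclear receptor PPARα in muscle, MCK-PPARb mice overexpress PPARβ, and NTGa and NTGb are the wild-type, non-transgenic littermates of each line. MCK stands for muscle creatine kinase, whose promoter is active in striated muscle fibres. Strain and founder lines are not stated in the labels used here. Replicates are called biological in the labels and were treated as separate animals.

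The Dlk1-Dio3 domain is expressed according to the parent of origin. Its protein-coding genes Dlk1, Rtl1 and Dio3 are active on the chromosome from the father, and its noncoding RNAs Meg3, Rian and Mirg, together with the microRNAs, on the chromosome from the mother. The microRNAs opposite Rtl1 pair perfectly with its transcript and guide its cleavage, while a long run of related hairpins from Mir379 to Mir410 is best known from neurons. In muscle the domain is known from the callipyge mutation of sheep, which enlarges the hindquarters, and its microRNAs are abundant in embryonic and regenerating muscle.

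The sequences below are those of the microRNAs on which the comparisons turned, with the seed, bases 2 to 8 from the 5′ end, in capitals. Sequences and positions are from RefSeq, build GRCm38.p6, and an assay name with no arm (miR-127) was matched to the arm that the older name stood for (miR-127-3p). From the span of Rtl1 came miR-337, miR-127, miR-434 and miR-136, of which miR-337 had assays for both arms that were detected in every animal.
miR-337-5p: cGGCGUCAugcaggaguugauu
miR-337-3p: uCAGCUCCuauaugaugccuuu
miR-127-3p: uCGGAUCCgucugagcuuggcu
miR-434-3p: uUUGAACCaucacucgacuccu
miR-136-5p: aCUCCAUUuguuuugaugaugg
From the run between Mir379 and Mir410 came the following, of which miR-379 and miR-411 begin the run and differ in their seeds at 1 of 7 bases, with 14 of 21 bases identical over the whole length.
miR-379-5p: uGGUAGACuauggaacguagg
miR-411-5p: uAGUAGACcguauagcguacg
miR-380-5p: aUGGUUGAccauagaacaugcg
miR-539-5p: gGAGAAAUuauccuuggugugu
miR-134-5p: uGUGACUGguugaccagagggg
miR-409-3p: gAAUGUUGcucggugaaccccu
Of the 48 members, 45 matched a RefSeq mature sequence, and those 45 had 45 distinct seeds, so no seed was shared. For 46 members RefSeq held the hairpin, on the plus strand of chromosome 12 between positions 109563692 and 109743795. By position, 1 member lay in Meg3, 13 in the span of Rtl1, 1 in Rian and 33 between Mir379 and Mir410.

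The deposited value is a cycle threshold (Ct), which is lower where more template is present. Detection was defined as a Ct under 35. Log2 relative abundance was taken as a reference minus the Ct of the assay, where the reference is the average Ct, per card and animal, over the microRNAs seen in every mouse. On this scale 1 unit is a factor of 2 if the PCR doubles its product in each cycle. Values not detected were set to a floor of -7.44 on card A or -6.84 on card B. In such bulk tissue, fewer cells of a type and less RNA per cell cannot be told apart.

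Between 248 and 296 microRNAs were detected per animal. Among marker microRNAs, 6 of 7 for skeletal muscle were detected in all 12 animals, as were 5 of 6 for leukocytes, both for endothelium and 4 of 5 for smooth muscle and fibroblasts. Only 1 of 7 neural markers was, miR-137 and miR-153 were detected in no animal, and none of 8 epithelial markers was detected in all. NTGb replicate 2 stood apart, with the most microRNAs detected (296, against 261 and 248 in the other NTGb mice), and values without it are given where it moved a result most.

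Members of the cluster were detected in soleus about as often as the assays of the whole survey. Of the 48 members, 17 (35.4%) were detected in all 12 animals, 16 in some and 15 (31.2%) in none, against 208 (35.6%) and 220 (37.7%) of the 584 assays. Those 17 had a median Ct of 31.2. In the span of Rtl1 6 of 13 members were detected in every animal (miR-673-5p, miR-337-5p, miR-337-3p, miR-127, miR-434-3p and miR-136), and between Mir379 and Mir410 11 of 33 (miR-379, miR-411, miR-494, miR-495, miR-667, miR-376c, miR-376a, miR-487b, miR-539, miR-409-3p and miR-410). Neither miR-770-3p in Meg3 nor miR-433, opposite Rtl1, was detected in any animal. Never detected either were miR-154, miR-300, miR-377, miR-485, miR-665, miR-666-5p, miR-668, miR-679, miR-758, both arms of miR-540, and miR-369-3p and miR-380-3p. Such an absence means a Ct of 35 or more, not that the RNA was missing.

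**Figure D1:**
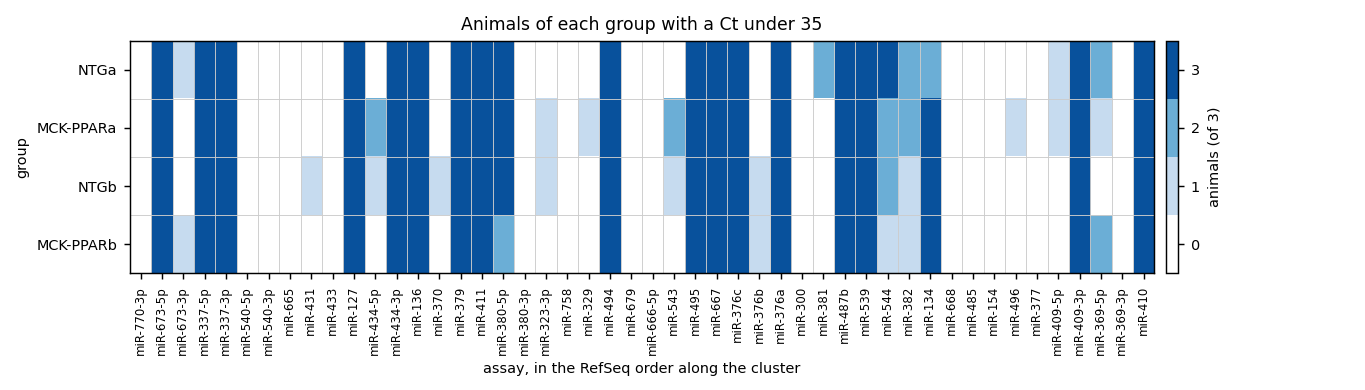
Number of animals per group (0 to 3, by shade) with a Ct under 35 for each of the 48 members, ordered along chromosome 12. The 17 members detected in all 12 animals form full dark columns, 15 columns are empty, and the groups differ mainly at members detected in a few animals.

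The number of members detected had overlapping ranges in the 4 groups. It was 22.3 ± 0.577 (SD, n = 3) in NTGa, 23.3 ± 1.53 in MCK-PPARa, 22 ± 4.36 in NTGb and 20.7 ± 1.15 in MCK-PPARb. The wide spread of NTGb came from replicate 2 with 27 members, against 19 and 20 in the other mice of its group. No member was detected in all 3 animals of one group and in none of another.

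On card A, miR-539, miR-434-3p, miR-411, miR-127 and miR-136 were the members of lowest mean Ct, at 28.1, 28.5, 28.5, 28.8 and 29.5. They ranked 66, 72, 73, 79 and 90 among the 375 microRNAs of that card by relative abundance, an order that is approximate because assays differ in efficiency. On card B only miR-673-5p, with a mean Ct of 32.1, was detected throughout. Its log2 relative abundance was -3.26, -3.49 and -2.36 in NTGa, -1.88, -3.49 and -2.84 in MCK-PPARa, -4.76, -3.65 and -2.68 in NTGb, and -4.91, -3.82 and -3.37 in MCK-PPARb, so all 4 groups overlapped. Its other arm, miR-673-3p, was detected in 1 NTGa mouse (Ct 34.7) and 1 MCK-PPARb mouse (33.7).

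Where a hairpin had assays for both arms, one arm usually prevailed. The 3p arm of miR-434 was detected in 12 animals and the 5p arm in 3, the 3p arm of miR-409 in 12 and the 5p arm in 2, and the 5p arm of miR-380 in 11 and the 3p arm in none. The miR-434 hairpin is shown because its arms differed so widely in detection, with the 5p and then the 3p mature sequence in capitals (chr12:109594506-109594599, plus strand, GRCm38.p6).
Mir434: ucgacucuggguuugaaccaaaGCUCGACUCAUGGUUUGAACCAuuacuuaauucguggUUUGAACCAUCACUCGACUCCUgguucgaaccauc
Among the members, only miR-337 gave both arms in all 12 animals, and its hairpin is printed in the same way (chr12:109585789-109585885, plus strand, GRCm38.p6).
Mir337: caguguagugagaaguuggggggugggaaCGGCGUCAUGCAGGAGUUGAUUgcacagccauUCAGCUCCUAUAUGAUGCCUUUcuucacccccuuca
Both assays lay on card A, so the difference between the arms does not depend on the scaling. The level of the 3p arm minus that of the 5p arm, on the log2 scale, was 0.58, 0.96 and 1.23 in NTGa and -1.90, 0.61 and -1.04 in MCK-PPARa. It was 1.24, 0.14 and 2.21 in NTGb and -0.62, 0.26 and 0.09 in MCK-PPARb. The means were 0.92 ± 0.330 (SD, n = 3), -0.77 ± 1.27, 1.20 ± 1.04 and -0.09 ± 0.467. In each line the transgenic mean was the lower one, and the ranges of transgenic and control mice overlapped. This measure was chosen after its values were seen and was not tested.

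The first comparison asked which cluster microRNAs differ in muscle that overexpresses PPARα. In MCK-PPARa soleus the members of lowest p were miR-434-3p, miR-136 and miR-337-3p, which all lie in the span of Rtl1 and were all lower than in NTGa, but none passed the test. Group means were compared with limma over all 12 animals, with p-values adjusted over 268 assays, of which 20 were members. At an adjusted p under 0.05, 0 of the 20 members were called, where 2.24% of all tested assays were. Differences were negative for 11 of 20, where 41.8% of the assays were negative. At an unadjusted p under 0.05, 3 of 20 members were, all lower, where 15.7% of the assays were, and 8.58% were lower. The 11 negative differences include miR-544, which came to be tested only through NTGa, where it is high.

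For miR-434-3p the log2 relative abundance was 0.08, 0.25 and 1.18 in the NTGa mice and -1.10, -1.51 and -0.16 in the MCK-PPARa mice. Every MCK-PPARa mouse was below every NTGa mouse. The difference was -1.43 (SE 0.38, limma adjusted p = 0.108), or 2.69-fold lower, and without MCK-PPARa replicate 3 it was -1.81 with an adjusted p of 0.0293. It was smaller, and not called, without NTGa replicate 3, the highest of its group, or without MCK-PPARa replicate 2, the lowest of its group. miR-434-3p is the main product of a hairpin that lies opposite Rtl1.

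miR-136 also matches the Rtl1 transcript. Its levels were -1.39, -1.09 and 0.14 in NTGa and -1.92, -2.46 and -1.55 in MCK-PPARa, again without overlap. The difference of -1.20 (SE 0.40, limma adjusted p = 0.203) fell short of the threshold, and it was -0.78 without NTGa replicate 3, the animal that stood highest. Values of miR-337-3p were -2.85, -2.60 and -1.19 in NTGa against -4.82, -3.05 and -3.41 in MCK-PPARa. Here too the groups did not overlap, and the difference was -1.55 (SE 0.53, adjusted p = 0.203), or -1.02 without MCK-PPARa replicate 1. The 5p arm of the same hairpin lay at -3.42, -3.55 and -2.42 in NTGa and -2.92, -3.65 and -2.37 in MCK-PPARa, which overlap widely, with a difference of 0.15 (SE 0.58).

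All 3 of these microRNAs were also lower in the NTGb controls than in NTGa. Against NTGb, the MCK-PPARa mice differed by -0.33 for miR-434-3p (adjusted p = 0.616), -0.41 for miR-136 (0.552) and -0.43 for miR-337-3p (0.628). NTGa had the highest mean of the 4 groups for each of them.

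miR-127, whose targeting of Rtl1 is the best known of the cluster, gave 0.14, -1.26 and -0.64 in NTGa and -1.30, -1.77 and -0.85 in MCK-PPARa. The groups overlapped, and the difference was -0.72 (SE 0.56, limma adjusted p = 0.597), or -0.36 without NTGa replicate 1. In the run after Mir379, miR-411 was the most even member within MCK-PPARa, at -0.90, -0.83 and -0.95, below the NTGa levels of -0.09, -0.58 and 0.25. That difference was -0.75 (SE 0.34, adjusted p = 0.311).

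Among the members of lowest p, one stood the other way. miR-134, known for limiting dendritic spine growth in neurons, was at -6.43, -6.47 and the floor of -7.44 in NTGa and at -5.85, -4.57 and -5.44 in MCK-PPARa. Every MCK-PPARa mouse was above every NTGa mouse, with a difference of 1.49 (SE 0.72, limma adjusted p = 0.330), and the sign turned against NTGb (-1.31). The groups did not overlap for 5 of the 20 members, 4 of them lower in MCK-PPARa, where 26.1% of all tested assays did not overlap and 10.8% were lower.

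**Figure D2:**
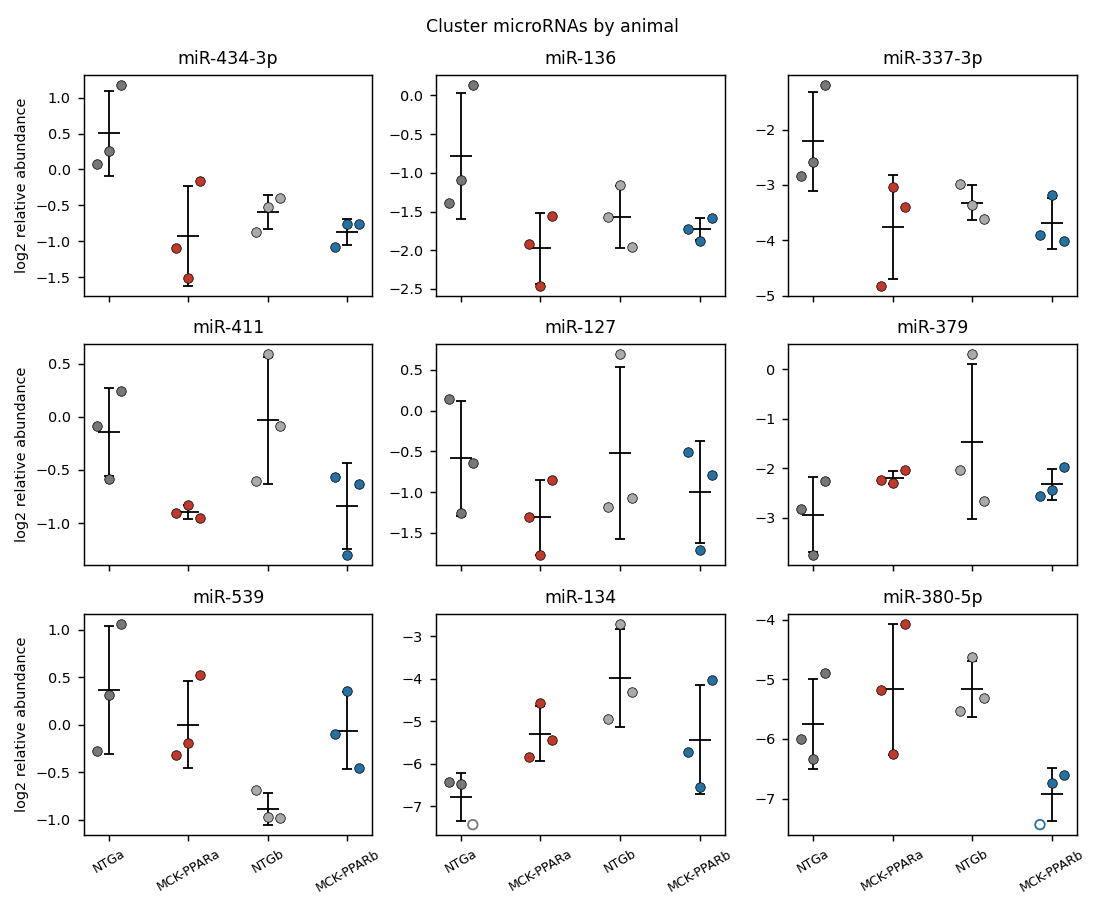
Log2 relative abundance of 9 members by group, 1 point per animal with the mean and SD (n = 3); open circles are animals in which the microRNA was not detected and stands at the floor of -7.44. For miR-434-3p, miR-136 and miR-337-3p the MCK-PPARa points lie below all NTGa points, and for miR-379 NTGb replicate 2 stands far above the rest.

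The second comparison asked the same of PPARβ. In MCK-PPARb soleus more members stood below their littermates than above, yet 0 of 20 were called by limma, where 0% of the assays were. At an unadjusted p under 0.05, 2 of 20 members were, both lower, where 7.84% of the assays were, and 2.61% were lower. Differences were negative for 17 of the 20 members, where 47.8% of the assays were negative. The groups did not overlap for 3 of 20 members, 2 of them lower, where 15.3% of the assays did not overlap and 4.48% were lower.

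miR-380-5p had the lowest p. It was at -5.53, -4.63 and -5.31 in NTGb and at the floor of -7.44, -6.73 and -6.61 in MCK-PPARb. All MCK-PPARb mice were below all NTGb mice, and the difference was -1.77 (SE 0.56, limma adjusted p = 0.515). With 1 mouse at the floor its size is uncertain, and it was -1.51 with undetected values missing, -3.49 with no detection limit and -1.18 against the controls of the other line. Its Ct was between 32.2 and 34.8 where detected in these mice, a range in which pairs of wells of one assay on card B differed by a median of 0.755 Ct.

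miR-411 was at -0.60, 0.59 and -0.09 in NTGb and at -0.57, -1.30 and -0.64 in MCK-PPARb. One MCK-PPARb mouse was above the lowest NTGb mouse, so the groups overlapped. The difference was -0.80 (SE 0.34, limma adjusted p = 0.587) and was -0.49 without NTGb replicate 2. miR-134 was at -4.93, -2.70 and -4.32 in NTGb and at -5.72, -6.56 and -4.03 in MCK-PPARb, with a difference of -1.45 (SE 0.72, adjusted p = 0.604) that had the opposite sign to that in the PPARα line and was -0.81 without NTGb replicate 2 and -0.90 without MCK-PPARb replicate 2.

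miR-539 was 1 of 3 members with a positive difference. Its level was -0.69, -0.98 and -0.99 in NTGb and -0.09, 0.35 and -0.46 in MCK-PPARb, without overlap, a difference of 0.82 (SE 0.37, limma adjusted p = 0.587). In the span of Rtl1, the members described above gave differences of -0.27 for miR-434-3p, -0.16 for miR-136, -0.37 for miR-337-3p and -0.48 for miR-127 and SEs of 0.38 to 0.56. The sign of miR-127 turned to 0.13 without NTGb replicate 2, and its difference was -0.13 without MCK-PPARb replicate 2, -0.81 without NTGb replicate 1 and -0.77 without NTGb replicate 3. miR-337-5p was at 0.91 (SE 0.58), but at 0.24 without NTGb replicate 3 and 1.42 without NTGb replicate 2.

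**Figure D3:**
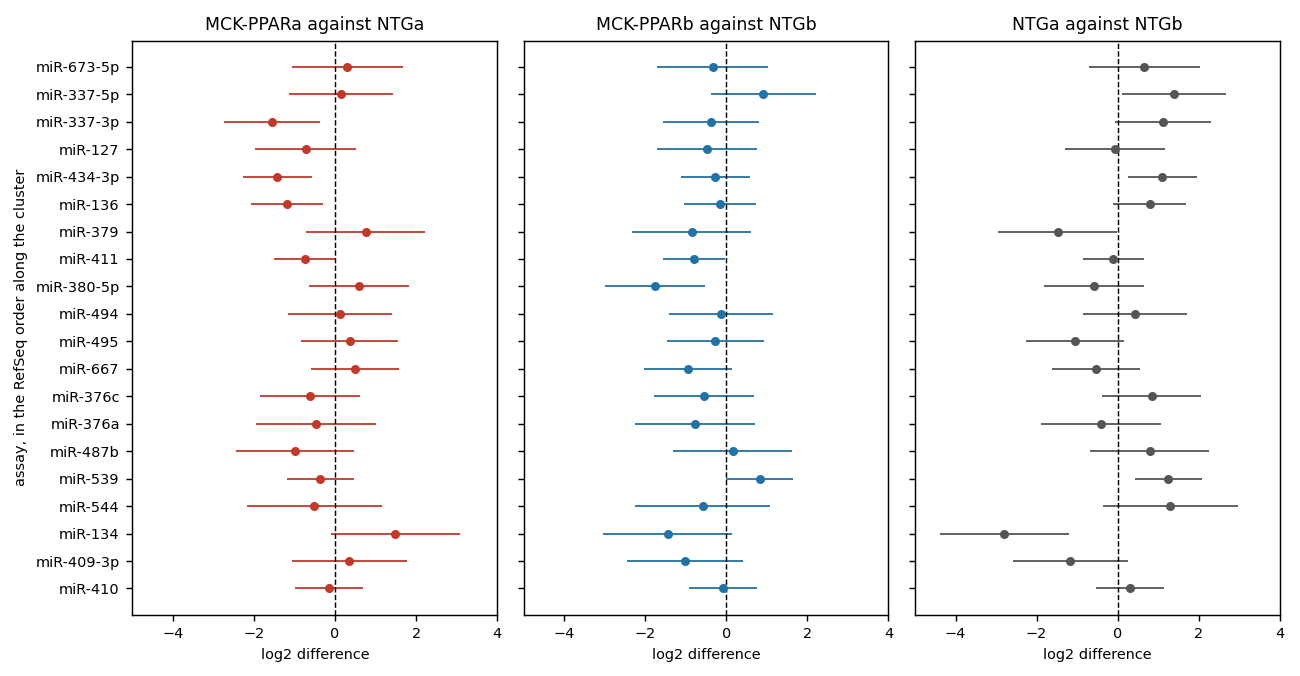
Log2 difference of the group means with its 95% interval from limma for the 20 tested members, in 3 comparisons, ordered along the cluster. Most intervals include 0; in MCK-PPARb against NTGb 17 of the 20 points are negative, and in MCK-PPARa against NTGa miR-337-3p, miR-434-3p and miR-136 are farthest below 0.

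The third question was whether the effects of the transgenes differ from each other. As a test of the difference of effects (PPARα line minus PPARβ line), limma called 0 of 20 members, where 1.12% of the assays were called. At an unadjusted p under 0.05, 3 of 20 were, where 10.8% of the assays were. These were miR-134 (2.94, SE 1.01, adjusted p = 0.258), miR-380-5p (2.35, SE 0.79, adjusted p = 0.255) and miR-539 (-1.18, SE 0.52, adjusted p = 0.444). The next was miR-434-3p (-1.16, SE 0.54, adjusted p = 0.489). The opposite directions of miR-134 in the lines were therefore not shown to differ.

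The controls of the lines were compared as a measure of the background between the lines. Here 0 of 20 members were called by limma, where 1.49% of the assays were, and 5 of 20 had an unadjusted p under 0.05, where 15.7% did. The groups did not overlap for 5 of 20 members, where 19.8% of the assays did not. Among these 5, miR-544 came to be tested only through NTGa, where it is high, and 1 NTGb mouse was at the floor. Its lack of overlap therefore carries no weight. The lowest p was that of miR-134, which was 6.94-fold lower in NTGa than in NTGb (log2 -2.79, SE 0.72, adjusted p = 0.084), with 1 NTGa mouse at the floor. Without NTGb replicate 2, the highest of its group at -2.70, the difference was -2.12 (adjusted p = 0.156). The adjusted p was 0.0458 without MCK-PPARb replicate 3, which enters only through the shared spread and scaling. miR-539, by contrast, was higher in NTGa at -0.28, 0.32 and 1.07 than in NTGb, where all 3 mice lay between -0.99 and -0.69. That difference was 1.25 (SE 0.37, adjusted p = 0.139). Higher in NTGa as well were miR-434-3p (1.10, SE 0.38, adjusted p = 0.193) and miR-337-5p (1.39, SE 0.58, adjusted p = 0.300), the latter at 0.71 without NTGb replicate 3. NTGa and NTGb also enter the transgene comparisons, so these values are not independent of them.

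Over the cluster, medians were taken for the 21 members and 260 assays whose mean over all 12 animals, with groups ignored, was at least 1 log2 unit above the floor. The median difference was -0.16 in MCK-PPARa against NTGa, beside 0.13 over all assays, with 11 of 21 members negative. In MCK-PPARb against NTGb it was -0.48, beside 0.01, with 18 of 21 negative (85.7%, against 49.6% of all assays). Between NTGa and NTGb it was 0.30, beside -0.05. For scale, the median member of an animal varied within groups with a pooled SD of 0.448, and no test was made on these medians.

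These medians depended on single animals. In the PPARβ line the value of -0.48 became -0.23 without NTGb replicate 2, -0.27 without MCK-PPARb replicate 1 and -0.86 without NTGb replicate 1. In the PPARα line -0.16 became -0.51 without MCK-PPARa replicate 3, -0.06 without NTGa replicate 3, -0.03 without MCK-PPARa replicate 1, -0.26 without NTGb replicate 2, which enters only through scaling and the choice of members, and 0.05 without MCK-PPARa replicate 2. Between the controls 0.30 became 0.69 without NTGa replicate 2 and 0.62 without NTGb replicate 2, but 0.11 without NTGa replicate 1, 0.09 without NTGb replicate 1 and 0.03 without NTGb replicate 3. The median of the difference of effects, 0.08, ran from -0.29 without NTGb replicate 2 to 0.53 without NTGb replicate 1.

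Along the chromosome the segments differed by comparison, a division that was chosen after the values were seen. Of the members used for the medians, 6 lay in the span of Rtl1 and 15 between Mir379 and Mir410. In MCK-PPARa against NTGa the former had a median of -0.96, with 4 of 6 negative, and the latter 0.12, with 7 of 15 negative. In MCK-PPARb against NTGb the medians were -0.30 and -0.73, with 5 of 6 and 13 of 15 negative. NTGa exceeded NTGb by a median of 0.94 in the span of Rtl1 and differed by -0.11 in the rest.

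Within groups, cluster members tended to be high in the same animal. In NTGb, replicate 2 was the highest of the 3 mice for 15 of 21 members (71.4%), though only for 35.4% of all 260 assays, and the lowest for none. In MCK-PPARa, replicate 3 was the highest for 15 of 21 (71.4%, against 30.8%). NTGa replicate 3 was the highest for 14 of 21 (66.7%, against 33.5%), and MCK-PPARb replicate 3 for 12 of 21 (57.1%, against 34.2%). Members measured in 1 animal share its RNA and its cards, so they are not independent.

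In NTGb replicate 2 the excess over the mean of the other NTGb mice was 2.66 for miR-379, 2.83 for miR-382, 2.16 for miR-409-3p, 1.93 for miR-134 and 1.82 for miR-127. It was close to 0 for miR-434-3p (0.11), miR-337-3p (-0.06), miR-487b (-0.01) and miR-539 (-0.14), so the excess was not uniform along the cluster. miR-379, the first hairpin of its run, was at -2.04, 0.31 and -2.66 in NTGb, against -3.76 to -1.97 in the 9 mice of the other groups. miR-409-3p stood at -3.63, -1.41 and -3.52 in NTGb.

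Some members were detected in this mouse and hardly elsewhere. miR-431, which is known to promote differentiation of muscle stem cells, had a Ct of 30.4 in NTGb replicate 2 and was above 35 or not called in the other 11 animals. miR-370, the member in Rian, had a Ct of 31.4 there and was likewise not detected in any other animal. The 5p arm of miR-434 had a Ct of 31.9, against 33.4 and 34.0 in MCK-PPARa replicates 1 and 3, the only other mice in which it was detected. Detection in a single animal was not confined to NTGb replicate 2. miR-329 was detected only in MCK-PPARa replicate 2 (Ct 33.1), and miR-496 only in MCK-PPARa replicate 1 (34.8).

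**Figure D4:**
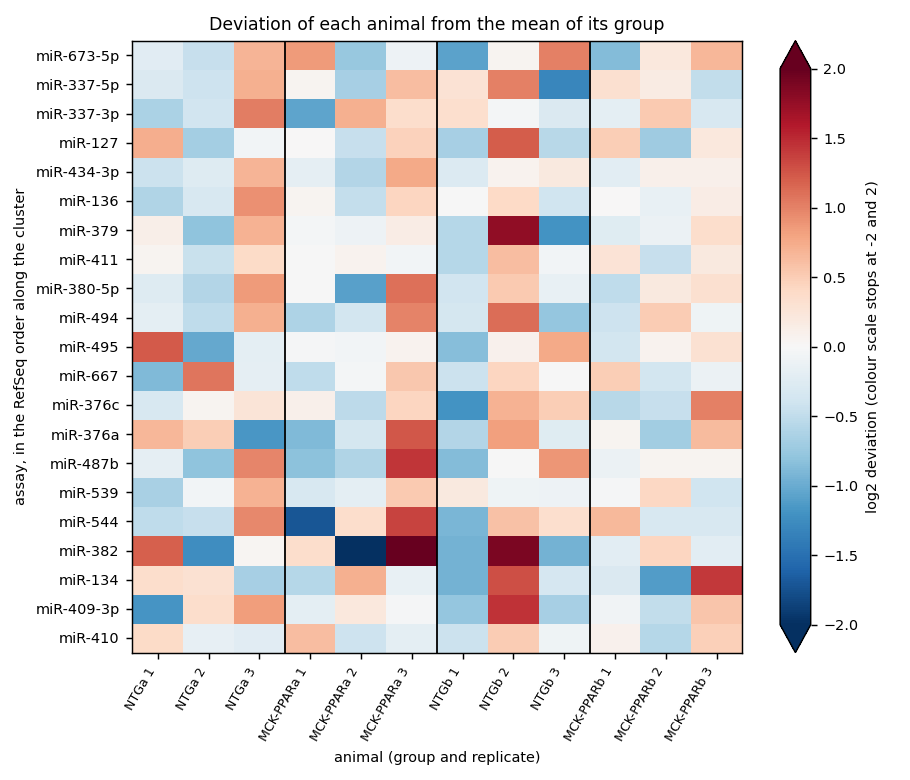
Log2 deviation of each animal from the mean of its own group for the 21 members used for the medians, ordered along the cluster; red is above and blue below the group mean, vertical lines part the groups. NTGa replicate 3, MCK-PPARa replicate 3 and NTGb replicate 2 show mostly red columns, with miR-379, miR-382 and miR-409-3p deepest in NTGb replicate 2.

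The summed levels of marker microRNAs in these animals were as follows. Each sum holds only the markers with a Ct under 35 in that animal, so sums can differ in the markers they hold. The neural sum (log2), from 1 to 3 of the 7 markers in each animal, was -1.98 in NTGb replicate 2, the lowest of its group. The other NTGb mice had -1.27 and -0.57. The neural sum was also the lowest of its group in NTGa replicate 3 (-1.40, from 1 marker) and MCK-PPARa replicate 3 (-1.39). In MCK-PPARb replicate 3 it was -1.14, between the other mice of that group at -1.17 and 0.11. The neural range was -1.40 to -0.37 in NTGa, -1.39 to -0.68 in MCK-PPARa, -1.98 to -0.57 in NTGb and -1.17 to 0.11 in MCK-PPARb.

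Smooth muscle and fibroblast markers summed to 5.04 in NTGb replicate 2, between the other mice of its group at 5.03 and 5.09. They summed to 5.52 in MCK-PPARa replicate 3, the highest of its group. In NTGa replicate 3 the sum was the lowest of its group, at 5.304 against 5.315 and 5.345. It was also the lowest of its group in MCK-PPARb replicate 3, at 4.999 against 5.211 and 5.099. Skeletal muscle markers summed to 11.2 in NTGb replicate 2 against 12.0 and 12.2 in the other mice of its group, and endothelial markers to 8.34 against 9.20 and 9.43. In MCK-PPARb replicate 3, by contrast, both sums were the highest of the group, at 11.8 and 9.15. Epithelial markers, of which 2 to 4 of 8 were detected in each NTGb mouse, summed to -2.99 in NTGb replicate 2 against -5.11 and -3.53, the highest of its group, and leukocyte markers to 4.83 against 5.40 and 5.54, the lowest. In MCK-PPARa replicate 3 the epithelial (-4.70), leukocyte (5.04) and endothelial (8.86) sums were each the lowest of the group. In NTGa replicate 3 the endothelial sum (9.15) was the highest of its group, and the leukocyte sum (5.18) lay between the others. The erythroid list had 1 assay, miR-451, which was the lowest of its group in each of these animals. Its level was -2.04 in NTGb replicate 2 (others -1.31 and -1.51) and -1.61 in NTGa replicate 3 (-1.03 and -0.98). It was -1.09 in MCK-PPARa replicate 3 (others -0.06 and -0.74) and -1.27 in MCK-PPARb replicate 3 (-0.90 and -1.09). The reference Ct of card A was 27.6 in NTGb replicate 2 against 28.4 and 28.4 in the other mice of its group. The part of these differences in the cluster values was not tested.

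The spread between animals was compared with that of all microRNAs at like Ct, as a description with no test. The median pooled SD within groups was 0.743 on the log2 scale over the 21 members and 0.496 over the 260 assays. At a mean Ct from 25 to 30 it was 0.496 for 6 members and 0.325 for 94 assays, and at 30 to 32 it was 0.774 for 5 members and 0.628 for 57 assays. Between 32 and 35 the order turned, with 0.856 for 8 members and 0.921 for 51 assays. Among the members, miR-382 varied most, with an SD of 2.22 among the MCK-PPARa mice (-4.70, the floor of -7.44 and -3.05), and miR-411 least, with a pooled SD of 0.418.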

How the data were processed

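Total RNA of the soleus was run as TaqMan microRNA assays on 2 cards (A and B), per the labels' protocols, so the 24 deposited samples were 12 animals. The authors deposited 1 Ct per well, not normalized; its software, threshold and baseline: not given in the sources used here. All data columns matched a sample (0 unmatched). Wells of an assay were averaged, and a well with no Ct beside a called well counted as Ct 40. Scaling used 149 (card A) or 59 (card B) microRNAs, and an undetected value took the lowest reference Ct minus 35. Assays detected in all 3 animals of a group were tested (180 and 88) with limma 3.58.1 in R 4.3.3, with 4 group means and 8 residual degrees of freedom, two-sided, Benjamini-Hochberg adjusted. Tested on simulated data for MCK-PPARb against NTGb (268 assays), 37.5% of changes by 2-fold were recovered, 63% by 4-fold and 87.5% by 8-fold. In each of 20 simulated sets, 30 changed assays were drawn from all 268 and raised in MCK-PPARb. Noise was normal and independent between assays, with no floor, so the rates hold for that setting only. The members varied more within groups (median pooled SD 0.743, against 0.496), so these are not the rates for members.

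Values by animal are given for the 5 members of highest abundance on each card and up to 4 of lowest p in each comparison; members detected in a single animal, miR-379, miR-382 and miR-409-3p were named after their values were seen. The members and marker lists were chosen with earlier results of these data known.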

Additional observations from a re-analysis of the deposited data

How the results depend on the processing

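Across the alternatives (detection limit, reference, treatment of undetected values, filter, wells, replicate block, animal weights, samples and controls), the number of cluster members called was 0 in most fits. In MCK-PPARa against NTGa it was 1 with a replicate block (miR-434-3p, -1.43, adjusted p = 0.0381). It ran from 0 to 1 when single animals were left out. miR-434-3p was called without MCK-PPARa replicate 3, and miR-381 (-0.98, adjusted p = 0.0266) without NTGa replicate 1. miR-381 was detected only in NTGa replicates 2 and 3 (Ct 34.2 and 34.3) and stood at the floor in every other animal. It came to be tested only through the group where it is high, with no spread at the floor, so that call carries no weight. The labels do not say whether a replicate number links animals. Over the 268 tested assays, same-numbered deviations from the group means correlated at -0.298 to 0.000 in the PPARα line and 0.010 to 0.171 in the PPARβ line. Of 12 animals, 4 correlated best with their own number. Among the members, replicate 3 was most often the highest mouse in NTGa, MCK-PPARa and MCK-PPARb, as given above. These values cannot settle whether animals of the same number are linked. Between the controls the number of members called was 1 with U6 snRNA as reference (miR-539, 1.80, adjusted p = 0.0408), 1 with the median reference (miR-134, -3.09, adjusted p = 0.0407) and 0 to 1 with single animals left out. In MCK-PPARb against NTGb and for the difference of effects it was 0 throughout.

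Median cluster differences moved to -0.72 (PPARα line) and 0.75 (controls) at a limit of Ct 32, which left 9 members, and to 0.85 between the controls with U6, which moved the median of all microRNAs there to 0.49. With single animals left out the medians ran from -0.51 to 0.05 (PPARα line), -0.86 to -0.23 (PPARβ line), -0.29 to 0.53 (difference of effects) and 0.03 to 0.69 (controls). In the PPARβ line the median was -0.17 with U6. Animal weights were not applied to medians, as planned, and a floor at the highest reference was added after seeing the data and changed no call.

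Some signs turned. With U6, miR-337-5p was at -0.0374 (PPARα line) and miR-434-3p at 0.0425, miR-136 at 0.15 and miR-673-5p at 0.0516 (PPARβ line). miR-337-5p was at -0.0347 without scaling, and miR-673-5p at 0.19 with animal weights (PPARβ line). Against all 6 controls miR-539 was at 0.26 in the PPARα line. Against the controls of the other line, miR-539 was at 0.89, miR-380-5p at -0.0097 and miR-134 at -1.31 (PPARα line), and miR-539 at -0.43, miR-134 at 1.34 and miR-337-5p at -0.48 (PPARβ line). With single animals left out, miR-337-5p ran from -0.16 to 0.48 and miR-673-5p from -0.15 to 0.68 in the PPARα line. In the PPARβ line miR-127 ran from -0.81 to 0.13 (without NTGb replicate 2), miR-136 from -0.38 to 0.0428 and miR-673-5p from -0.86 to 0.14. The cause was not tested.

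Under the alternatives other than leaving out an animal, 396 values of named members kept direction and side of the threshold, 13 changed sign and 3 came to be called. Precision was limited by Ct: wells of 1 assay on card B differed by a median of 0.192 Ct between Ct 25 and 30 and 0.381 between 30 and 32.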

Other observations

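The asterisk and rat assays of the same microRNA numbers, which are not among the 48, gave a further view of the hairpins. Of the 16 asterisk assays 3 were detected in all 12 animals and 11 in none. Those 3 were miR-299*, whose plain form has no assay here, miR-376b*, and the rat assay of miR-136*. The log2 relative abundance of miR-376b* was -1.63, -1.47 and -0.91 in NTGa, -1.45, -1.44 and -1.17 in MCK-PPARa, -1.91, -0.43 and -1.41 in NTGb, and -1.61, -1.33 and -1.99 in MCK-PPARb, while the assay for miR-376b itself was detected in 2 animals. The miR-376 hairpins are known as sites of RNA editing in brain. For miR-485 the asterisk assay was detected in 9 animals and the plain one in none, and NTGb replicate 2 was again the highest at -1.34, against -3.51 and -4.48 in the other mice of its group.

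The rat assay of miR-136* lay at -1.69, -1.79 and -0.74 in NTGa and -2.69, -2.78 and -1.20 in MCK-PPARa, a difference of -0.82 (SE 0.45, limma adjusted p = 0.429), beside -1.20 for miR-136. The mouse assay of the same name, miR-136*, was detected in none of the 12 animals, so the assays named for this strand disagree, and what the rat assay measured in mouse RNA is uncertain. For miR-411*, detected in 4 animals, NTGb replicate 2 was the highest at -3.17. Of the 6 rat assays without an asterisk, 4 were detected in no animal. The rat assay of miR-381 was detected in 5 animals, the 3 NTGa mice (Ct 34.4, 34.5 and 33.5), MCK-PPARa replicate 3 (34.3) and NTGb replicate 2 (33.5). That of miR-758 was detected in NTGa replicate 2 (34.6) and NTGb replicate 2 (33.3), though the mouse assay was detected in none.

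Imprinted microRNAs outside the domain (miR-296, miR-298, miR-335 and miR-675, with 7 assays) were summed for comparison, over those with a Ct under 35 in each animal. The sum was 0.01 in NTGb replicate 2 against -1.47 and -1.12 in the other mice of its group, and -0.89 in MCK-PPARa replicate 3 against -1.32 and -1.65. In NTGa replicate 3 it was -1.88, between -2.04 and -1.16. In MCK-PPARb replicate 3 it was -1.59, the highest of its group, against -1.71 and -1.67. The sums held from 3 assays (NTGb replicate 2) to 5 (MCK-PPARa replicate 3), so they differ in the assays they hold.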
